A study of Mus musculus with 6 samples.

Results

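The genes examined here are 8 transcription factors of adipocyte formation: Pparg, Rxra, Cebpa, Cebpb, Cebpd, Klf15, Ebf1 and Nr1h3. They were taken by name from the 46603 Ensembl identifiers in the count tables, after matching identifiers to symbols on GRCm38. All 8 passed the filter on low counts and were tested, among 15828 genes in all. RNA was sequenced from the tip of the abdominal visceral fat of C57/Bl6 mice aged 18 months, with 3 libraries from NM1 KO mice and 3 from wild-type mice (WT). Nuclear myosin 1, missing in NM1 KO, is an isoform of the Myo1c gene product that acts on transcription and chromatin inside the nucleus. All mice were untreated and had free access to food and water. Which part of Myo1c was altered, whether the loss is limited to any tissue, and the sex of the mice are not given by the labels.

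Fat cell formation runs through a cascade of transcription factors. C/EBP beta and C/EBP delta, encoded by Cebpb and Cebpd, are induced early by hormonal signals and help to turn on Pparg and Cebpa. PPAR gamma binds DNA as a heterodimer with a retinoid X receptor such as that encoded by Rxra. PPAR gamma and C/EBP alpha then sustain each other and the genes of lipid storage in the mature fat cell. Ebf1 and Klf15 act upstream of or beside them, and Nr1h3 encodes the oxysterol receptor LXR alpha, which also pairs with retinoid X receptors and is active in macrophages as well as in fat.

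The start regions of 3 of these genes are shown because they stand for the steps of this cascade: Cebpb as an early factor, and Cebpa and Pparg as the sustaining pair. Each is the 250 bases before a RefSeq transcription start on GRCm38.p6, 5′ to 3′ on the gene's own strand. Capitals mark TGACG, the core of the cAMP response element, in Cebpb. In Cebpa the capitals mark TATAAA, the box that positions the start of transcription. In Pparg they mark TTNCNNAA, a pattern that C/EBP proteins recognize. Each was searched on both strands.
Cebpb at chr2:167688665-167688914 on the plus strand: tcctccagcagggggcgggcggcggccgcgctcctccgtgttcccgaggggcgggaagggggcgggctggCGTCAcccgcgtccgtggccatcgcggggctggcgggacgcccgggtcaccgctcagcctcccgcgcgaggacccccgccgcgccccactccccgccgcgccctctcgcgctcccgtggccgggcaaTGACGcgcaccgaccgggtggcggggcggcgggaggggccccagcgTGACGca
Cebpa at chr7:35119043-35119292 on the plus strand: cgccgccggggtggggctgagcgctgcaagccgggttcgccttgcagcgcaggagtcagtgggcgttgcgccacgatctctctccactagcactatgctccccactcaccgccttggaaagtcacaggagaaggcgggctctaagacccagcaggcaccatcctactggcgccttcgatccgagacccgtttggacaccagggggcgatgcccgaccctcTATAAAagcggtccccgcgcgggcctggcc
Pparg at chr6:115421816-115422065 on the plus strand: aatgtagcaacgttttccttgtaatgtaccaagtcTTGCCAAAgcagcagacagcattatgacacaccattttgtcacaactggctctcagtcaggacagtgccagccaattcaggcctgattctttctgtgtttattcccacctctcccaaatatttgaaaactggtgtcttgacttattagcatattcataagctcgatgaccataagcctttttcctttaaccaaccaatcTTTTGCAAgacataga

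RefSeq promoters were found for 7 of the 8 genes, with 12 starts in all, and Cebpd had no entry. The Pparg sequence is the most downstream of its 3 starts, and the deposited counts add the messages of all of them. Matches to TTNCNNAA lay at bases -215 to -208 and -16 to -9 of that Pparg start, counted back from -1, the base before the start. The pattern occurs in 36.8% of 32851 RefSeq promoters in the same window, and in 2 of the 12 starts here. The other Pparg starts and the Cebpa start had no match to it. TGACG lay at -180 to -176 (as CGTCA), -53 to -49 and -7 to -3 of Cebpb, and in 17.8% of all promoters. It also occurred in the Klf15 start, and TTNCNNAA in 1 Ebf1 start. TATAAA lay at -30 to -25 of Cebpa and in 12.4% of all promoters, and it occurred in another Pparg start on the opposite strand. A STAT pattern, TTCNNNGAA, found in 7.02% of promoters, matched none of the 12 starts, which says only that these letters are not in these windows. No overlap between the marked patterns occurred in the 3 sequences, and a match describes letters, not binding.

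Total gene counts were 31211682, 33537818 and 27525446 in NM1 KO replicates 1 to 3, and 26705606, 31228723 and 24677758 in WT replicates 1 to 3. Levels are given as CPM, counts scaled to TMM-normalized library size, and fold changes as log2 of NM1 KO over WT with the standard error (SE). Genes count as called at a Benjamini-Hochberg adjusted p under 0.05 in edgeR (quasi-likelihood), with the adjustment made over every gene tested. The labels number the replicates without saying that each is a separate animal, so the p-values reflect only how far these samples spread, possibly for technical reasons. Myo1c had 452, 697 and 551 CPM in NM1 KO, against 801, 759 and 801 CPM in WT, and was not called (log2 -0.47 ± 0.17, adjusted p = 0.151). The ranges did not overlap, and limma-voom called it lower. That count covers all isoforms, so it does not check the deletion. WT replicate 2 had the highest level of Cebpb, of Cebpd and of 5 further genes described below.

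None of the 8 factors was called by edgeR's test, where 4.25% of all tested genes were called. A missing call does not show that a factor was unchanged. DESeq2 called 0 of the 8, where it called 14.2% of all genes (8.23% higher and 5.94% lower). Limma-voom called 0 of the 8 too, where it called 10.4% of all genes (6.1% higher and 4.32% lower). At an unadjusted p under 0.05, 2 of the 8 were lower in NM1 KO, Nr1h3 and Klf15, and 0 were higher, where 23.7% of all tested genes passed that level, 10.8% lower and 13% higher. Fitted log2 fold changes lay between -0.61 (Cebpd) and 0.09 (Pparg), with a median of -0.26, beside -0.0021 over all tested genes. For 2 of the 8, Nr1h3 and Cebpd, the NM1 KO and WT ranges were separate, as they were for 29.9% of all tested genes. Counts given below for gene and marker lists are to be read beside these shares of all tested genes. With GC and length trends removed the median of the 8 was -0.10. In each of the 16 alternative fits 0 of the 8 were called, but 4 of those fits, which left out NM1 KO replicate 3 or any 1 WT library, called between 1 and 37 genes in the whole table.

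**Figure D1:**
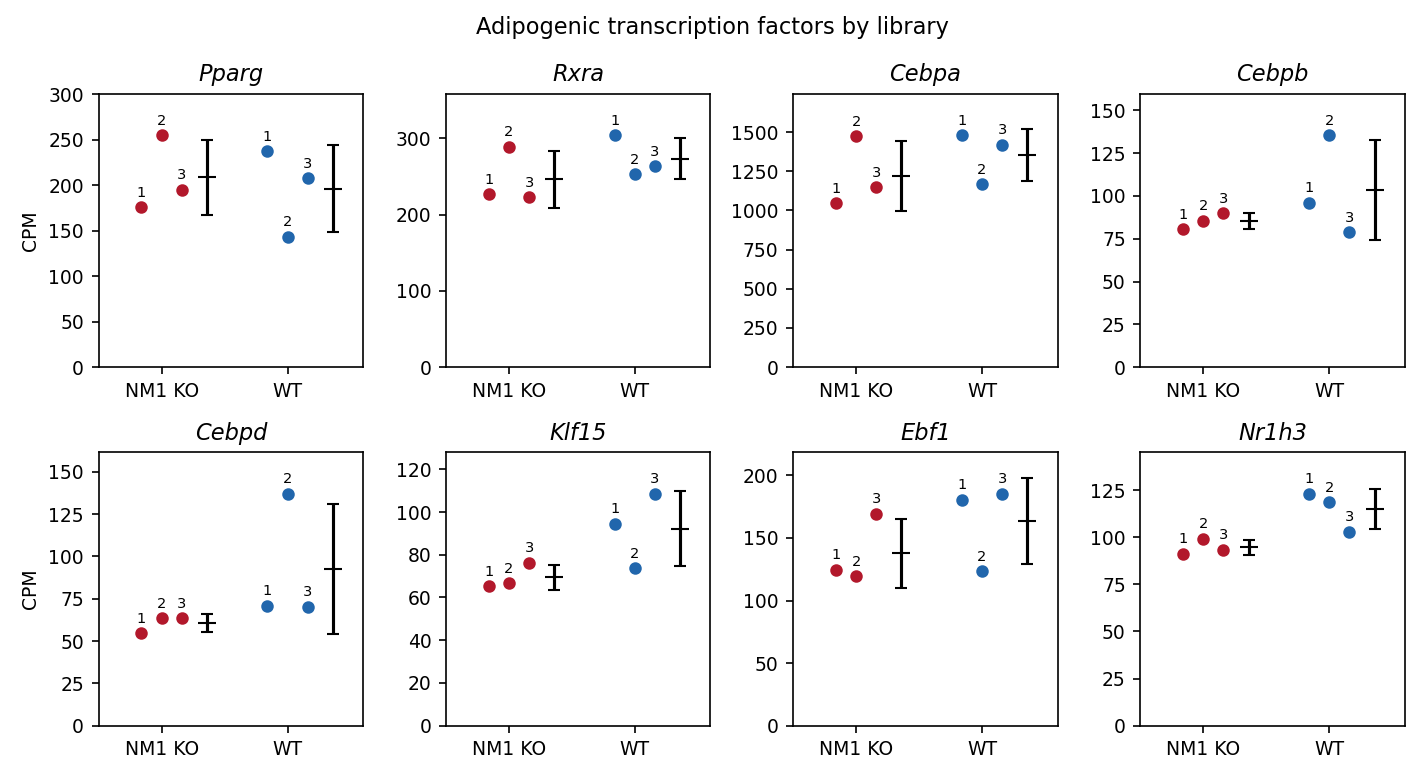
CPM of each factor in the 3 NM1 KO libraries (red, left) and the 3 WT libraries (blue, right); numbers are replicate numbers and the black bars are the mean ± SD of each group. WT replicate 2 is the highest library for Cebpb and Cebpd and the lowest WT library for Pparg, Rxra, Cebpa, Klf15 and Ebf1.

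Pparg (ENSMUSG00000000440, chromosome 6, 115360951 to 115490399, plus strand), the receptor without which fat cells do not form, had 176, 255 and 195 CPM in NM1 KO and 237, 143 and 208 CPM in WT. The groups overlapped, with NM1 KO replicate 2 the highest library and WT replicate 2 the lowest. Means were 209 ± 41.2 CPM in NM1 KO and 196 ± 48.0 CPM in WT (SD, n = 3 each), and the log2 fold change was 0.09 ± 0.22 with a 95% interval of -0.42 to 0.60 (edgeR adjusted p = 0.836). It was -0.091 without WT replicate 2 and -0.078 without NM1 KO replicate 2, so its sign rested on those libraries. Rxra (ENSMUSG00000015846, chromosome 2, 27676440 to 27762957, plus strand), which encodes its dimer partner retinoid X receptor alpha, had 227, 289 and 223 CPM in NM1 KO and 304, 253 and 264 CPM in WT. The NM1 KO range enclosed all but the highest WT library. The log2 fold change of Rxra was -0.15 ± 0.14 (95% interval -0.48 to 0.18, adjusted p = 0.557).

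Cebpa (ENSMUSG00000034957, chromosome 7, 35119293 to 35121928, plus strand), which encodes C/EBP alpha and keeps the mature fat cell state, had 1046, 1473 and 1148 CPM in NM1 KO, against 1479, 1166 and 1419 CPM in WT. Its groups overlapped, and its log2 fold change was -0.15 ± 0.18 (95% interval -0.56 to 0.26, adjusted p = 0.649). Without NM1 KO replicate 2, its highest NM1 KO library, the value was -0.30 (adjusted p = 0.250). Expressed per length, as CPM per kilobase of exons (FPKM), Cebpa averaged 464 ± 84.7 in NM1 KO and 514 ± 63.1 in WT. That placed it at rank 71 of the 15828 tested genes.

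Cebpb and Cebpd, the early factors of the cascade, had their highest level in a single WT library. Cebpb (ENSMUSG00000056501, chromosome 2, 167688915 to 167690418, plus strand) had 80.6, 85.6 and 89.7 CPM in NM1 KO and 96.1, 135 and 78.7 CPM in WT. The 3 NM1 KO libraries lay between WT replicate 3 and WT replicate 1, and WT replicate 2 lay above all others. The log2 fold change of Cebpb was -0.28 ± 0.19 (95% interval -0.74 to 0.18, adjusted p = 0.428), and -0.035 (adjusted p = 0.905) without WT replicate 2. Cebpd (ENSMUSG00000071637, chromosome 16, 15887286 to 15891031, plus strand) had 54.5, 63.6 and 63.6 CPM in NM1 KO and 70.8, 137 and 70.2 CPM in WT. Each NM1 KO library was below each WT library, and WT replicate 2 was again far above the rest. The log2 fold change of Cebpd was -0.61 ± 0.27 (95% interval -1.24 to 0.016, adjusted p = 0.221), and -0.22 (adjusted p = 0.356) without WT replicate 2. Counting across strands could touch both genes, since opposite-strand Tmem189 covers 20.7% of Cebpb's exonic bases and Spidr 15.0% of Cebpd's. Tmem189 had 89.8, 89.1 and 79.5 CPM in NM1 KO and 85.3, 72.2 and 78.8 CPM in WT. Spidr had 14.7, 12.7 and 15.5 CPM in NM1 KO and 12.1, 17.0 and 14.2 CPM in WT. The part of these overlaps in the Cebpb and Cebpd values was not tested.

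The same WT library had the highest level of 5 further genes, which were singled out after their values were seen and stand for no tested group. Among them, Mt1, Mt2 and Lcn2 are also in the glucocorticoid target list. Mt1 and Mt2 are metallothioneins induced by glucocorticoids and metals. Mt1 had 126, 191 and 170.0 CPM in NM1 KO and 129, 738 and 140.5 CPM in WT, and Mt2 had 70.5, 119 and 96.8 CPM in NM1 KO and 61.2, 676 and 72.9 CPM in WT. WT replicate 2 was the highest library for both. Lcn2, an acute-phase lipocalin, had 14.2, 13.1 and 11.2 CPM in NM1 KO and 7.10, 87.5 and 17.1 CPM in WT. Socs3, a feedback inhibitor of cytokine signalling, had 23.9, 27.5 and 24.3 CPM in NM1 KO and 24.5, 149 and 30.6 CPM in WT. Saa3, an acute-phase serum amyloid made in fat, had 53.6, 32.1 and 14.9 CPM in NM1 KO and 7.28, 183 and 24.9 CPM in WT. All 5 genes had their highest value in WT replicate 2. The summed CPM of 10 neutrophil markers was 27.0 to 38.5 in NM1 KO and 58.5 to 99.95 in WT, again highest in WT replicate 2. The part of these genes and markers in the Cebpb and Cebpd values of that library was not tested.

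**Figure D2:**
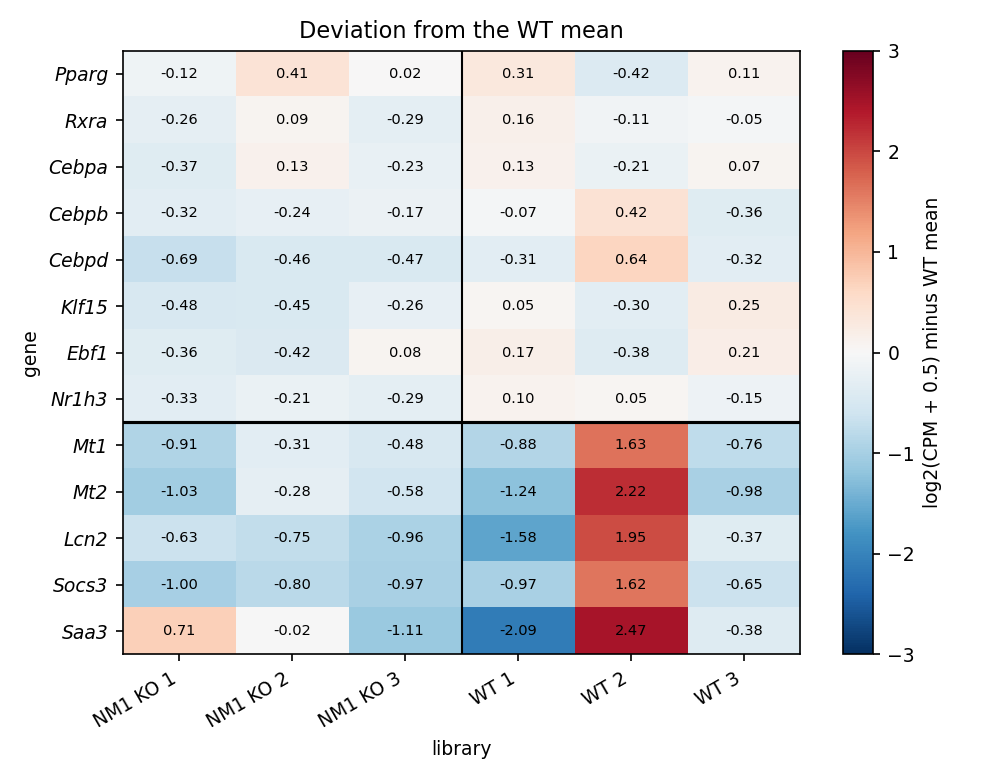
Each cell gives log2(CPM + 0.5) minus the mean of the 3 WT libraries, for the 8 factors (above the line) and the 5 genes chosen after their values were seen (below it), with the NM1 KO libraries left of the WT libraries. In WT replicate 2 Cebpb stood 0.42 and Cebpd 0.64 above the WT mean, and Mt2 2.22 above it, while Pparg stood at -0.42.

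Klf15 (ENSMUSG00000030087, chromosome 6, 90462576 to 90475238, plus strand) encodes a Krüppel-like factor that promotes fat cell formation and controls amino acid and glucose use. It had 65.3, 66.7 and 76.3 CPM in NM1 KO, against 94.6, 73.6 and 109 CPM in WT. The groups overlapped only through WT replicate 2, the lowest WT library. The log2 fold change of Klf15 was -0.41 ± 0.16 (95% interval -0.78 to -0.043, unadjusted p = 0.0330, adjusted p = 0.172), and -0.55 (adjusted p = 0.105) without WT replicate 2. Ebf1 (ENSMUSG00000057098, chromosome 11, 44617317 to 45008091, plus strand), an early B cell factor that also specifies fat cell precursors, had 125, 119.5 and 169 CPM in NM1 KO, against 181, 124 and 185 CPM in WT. NM1 KO replicates 1 and 3 lay within the WT range, and WT replicate 2 lay within the NM1 KO range. Its log2 fold change was -0.24 ± 0.20 (95% interval -0.72 to 0.23, adjusted p = 0.508). Ebf1 is also a B cell gene. The summed CPM of 8 B cell markers was 40.7 to 359 in NM1 KO and 73.2 to 138 in WT. NM1 KO replicate 1 had the highest sum. The part of B cells in the Ebf1 values was not tested.

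Nr1h3 (ENSMUSG00000002108, chromosome 2, 91184061 to 91202834, minus strand) had 91.2, 99.1 and 93.4 CPM in NM1 KO, against 123, 119 and 103 CPM in WT, and each NM1 KO library was below each WT library. Means were 94.6 ± 4.04 CPM in NM1 KO and 115 ± 10.6 CPM in WT (SD, n = 3 each). The log2 fold change of Nr1h3 was -0.28 ± 0.11 (95% interval -0.53 to -0.032, unadjusted p = 0.0316, adjusted p = 0.168). Macrophages also express this receptor, and the summed CPM of 14 macrophage markers was 4461 to 6474 in NM1 KO, against 1971 to 2413 in WT. In that list 7 of 14 were called higher and 0 lower, and all 14 had counts. The log2 fold change was positive for 12 and negative for 2 of them, from -0.85 to 3.96. The 7 calls became 0 without NM1 KO replicate 3, WT replicate 2 or WT replicate 3, and 3 without WT replicate 1. Those fits called 5, 4, 1 and 37 genes in the whole table, so the lost calls say nothing about stability. The list median was 0.98 to 1.06 in them, beside 1.03 with all libraries. Without NM1 KO replicate 1 there were 6 calls, and without NM1 KO replicate 2 there were 7. Adgre1, which encodes F4/80, had 287, 226 and 221 CPM in NM1 KO and 114, 81.6 and 94.7 CPM in WT. The macrophage sum was higher in NM1 KO while Nr1h3 was lower there, and its part in the Nr1h3 value was not tested.

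**Figure D3:**
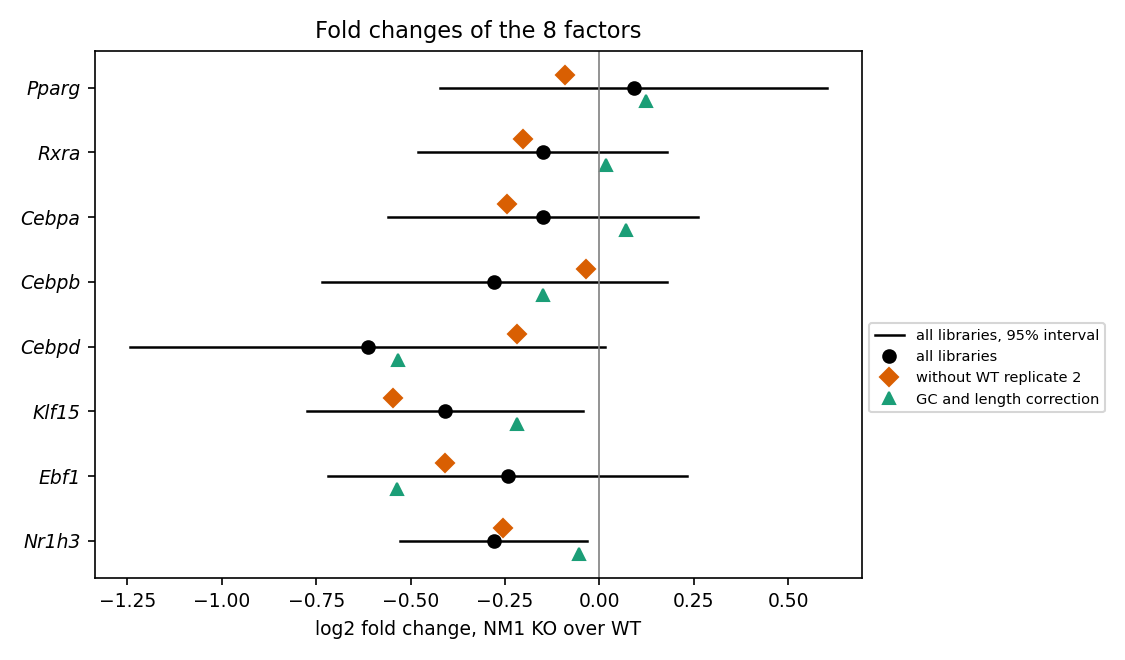
Log2 fold change of each factor, NM1 KO over WT, with all libraries (black point, line for the 95% interval), without WT replicate 2 (orange diamond) and after removal of GC and length trends per library (green triangle). Pparg, Rxra and Cebpa lie on either side of 0 depending on the fit, and Cebpb and Cebpd move toward 0 without WT replicate 2.

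The sign of Cebpa and Rxra turned when trends on GC content and exonic length were removed together. Over 14000 tested protein-coding genes, as a description across genes, the log2 fold change had a Spearman's rho of -0.37 with GC content, and the longest transcripts of the factors ran from 43.1% GC (Ebf1) to 67.2% (Cebpb). After removal of GC and length trends per library, the log2 fold change was 0.069 for Cebpa and 0.018 for Rxra, of the opposite sign to the uncorrected values. It was -0.054 for Nr1h3, -0.22 for Klf15 and -0.15 for Cebpb, all nearer to 0, and -0.54 for Ebf1, farther from it. That of Cebpd was -0.53 and that of Pparg 0.12.

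Levels of the factors were set side by side on the per-length scale, which uses union exonic length and is not corrected for GC content. The opposite-strand overlaps of Cebpb and Cebpd were not removed, so the order between factors is approximate. In NM1 KO the mean FPKM was 464 ± 84.7 for Cebpa, 70.7 ± 14.0 for Pparg, 56.7 ± 3.03 for Cebpb and 45.1 ± 6.81 for Rxra. It was 37.6 ± 1.61 for Nr1h3, 24.9 ± 2.13 for Klf15, 16.2 ± 1.40 for Cebpd and 14.1 ± 2.82 for Ebf1 (SD, n = 3 each). In WT the mean FPKM was 514 ± 63.1 for Cebpa, 68.8 ± 19.3 for Cebpb, 66.4 ± 16.2 for Pparg and 50.1 ± 4.94 for Rxra. It was 45.7 ± 4.22 for Nr1h3, 33.1 ± 6.29 for Klf15, 24.7 ± 10.3 for Cebpd and 16.7 ± 3.52 for Ebf1. Cebpa stood above all others in all 6 libraries. In NM1 KO the library ranges of Pparg and Cebpb overlapped, as did those of Cebpd and Ebf1, and the other neighbours in the order were separate. In WT the ranges overlapped between all neighbours except Cebpa with Cebpb and Nr1h3 with Klf15.

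Ratios within a library do not depend on library scaling. The FPKM ratio of Klf15 to Pparg was 0.392, 0.277 and 0.414 in NM1 KO replicates 1 to 3, against 0.422, 0.543 and 0.553 in WT replicates 1 to 3, and the groups did not overlap. The mean log2 ratio differed by -0.50 (exact two-sided permutation p = 0.1, the smallest that 3 against 3 allows, and adjusted p = 0.45 over the 6 ratios computed). Leaving out 1 library gave that difference values between -0.62 (without WT replicate 1) and -0.32 (without NM1 KO replicate 2). The differences were -0.38 for Nr1h3 to Pparg (exact permutation p = 0.2) and -0.34 for Ebf1 to Pparg (exact permutation p = 0.3). Nr1h3 to Pparg was -0.14 without WT replicate 2, and Ebf1 to Pparg was -0.094 when NM1 KO replicate 2 was left out and -0.54 when NM1 KO replicate 3 was. The differences were -0.26 for Rxra to Pparg (exact permutation p = 0.3) and -0.39 for Cebpd to Cebpa (exact permutation p = 0.7). Without WT replicate 2, Rxra to Pparg was -0.10. The ratio of Cebpb to Cebpa differed by -0.086 (exact permutation p = 0.9). Cebpb to Cebpa was 0.135, 0.102 and 0.137 in NM1 KO, against 0.114, 0.204 and 0.0972 in WT, with WT replicate 2 the highest of the 6. Leaving out 1 library gave Cebpb to Cebpa differences between -0.30 (without WT replicate 3) and 0.23 (without WT replicate 2), and the sign also turned without NM1 KO replicate 2 (0.054). For Cebpd to Cebpa they lay between -0.61 (without WT replicate 1) and 0.038 (without WT replicate 2).

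Likeness of profiles was measured as the root mean square difference of centred log2(CPM + 0.5) over the 6 libraries, among 139 candidate genes of the lists with a mean of at least 5 CPM. The gene nearest to Pparg was Ppargc1b, a PGC-1 co-activator (0.042). Nearest to Cebpa was Rxra (0.083), followed by Plin1, the lipid droplet coat protein perilipin (0.089). The gene nearest to Rxra was Stat5b, a signal transducer of growth hormone and prolactin (0.045) and then Cebpa. Cebpd was nearest to Cebpb (0.20), while Cebpb itself was nearest to Lpcat3, a phospholipid acyltransferase (0.15). Nearest to Nr1h3 was its possible partner Rxrb (0.042), nearest to Klf15 was Nr2f2, which encodes COUP-TFII (0.055), and nearest to Ebf1 was Klf11 (0.13). The root mean square spread of each factor about its own mean was 0.27 for Pparg, 0.20 for Cebpa and 0.16 for Rxra. It was 0.42 for Cebpd, 0.26 for Cebpb, 0.16 for Nr1h3, 0.26 for Klf15 and 0.27 for Ebf1. Distances are to be read beside these spreads. All these values describe 6 libraries and carry no test.

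Close relatives of the factors showed no call either, with 0 of 11 by edgeR. At the unadjusted level 1 was higher and 2 were lower, with a median log2 fold change of -0.12. DESeq2 and limma-voom each called 1, Ppara. Ppara, the receptor of fatty acid oxidation, had 5.41, 5.74 and 4.55 CPM in NM1 KO and 3.03, 2.37 and 2.72 CPM in WT, without overlap (log2 0.95 ± 0.23, adjusted p = 0.0631). It passed with the GC and length trend removed (adjusted p = 0.0421). Ppard was at 41.2 ± 5.19 CPM in NM1 KO and 46.1 ± 5.97 CPM in WT. Nr1h2, which encodes LXR beta, had 83.1, 88.3 and 80.9 CPM in NM1 KO and 99.8, 96.8 and 104 CPM in WT, again without overlap (log2 -0.26 ± 0.092, adjusted p = 0.153). Rxrb had 50.6, 51.6 and 49.9 CPM in NM1 KO and 62.5, 61.3 and 55.2 CPM in WT (log2 -0.23 ± 0.097, adjusted p = 0.197), and its ranges were separate too. With GC and length trends removed, Nr1h2 was at -0.015 and Rxrb at -0.0051. Rxrg had a log2 fold change of -0.12 ± 0.15. Among C/EBP relatives the values were 0.073 ± 0.15 for Cebpg, -1.20 ± 0.72 for the scarce Cebpe and 0.11 ± 0.12 for Ddit3, the inhibitory relative CHOP. The Ebf genes had 0.27 ± 0.31 (Ebf2), 0.016 ± 0.18 (Ebf3) and -0.19 ± 0.42 (Ebf4). Of the other 13 tested Krüppel-like factors edgeR called 0, with 1 higher and 2 lower at an unadjusted p below 0.05. DESeq2 and limma-voom each called 1 of them, Klf8 (log2 1.10 ± 0.30, adjusted p = 0.0838 in edgeR). For Klf2, an inhibitor of Pparg expression, log2 was -0.52 ± 0.19 (adjusted p = 0.154).

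Co-regulators, the proteins through which these factors act on chromatin, included genes that moved in both directions. Of 22 tested, 1 rose and 2 fell in edgeR, where 2.79% of all tested genes were called higher and 1.47% lower. DESeq2 called 5 higher and 3 lower, and limma-voom 6 higher and 3 lower. Ncoa2, a p160 co-activator of nuclear receptors, rose, with 71.3, 63.3 and 72.9 CPM in NM1 KO and 45.7, 37.8 and 39.9 CPM in WT (log2 0.75 ± 0.12, adjusted p = 0.0258). Helz2, a helicase that co-activates PPAR gamma, fell, with 47.1, 51.7 and 48.5 CPM in NM1 KO and 88.0, 88.6 and 78.3 CPM in WT (log2 -0.79 ± 0.10, adjusted p = 0.0186). Kmt2d, the enhancer methyltransferase MLL4 needed for fat cell formation, fell, with 121, 132 and 119.9 CPM in NM1 KO and 192, 169 and 174 CPM in WT (log2 -0.52 ± 0.10, adjusted p = 0.0388). Its relative Kmt2c, named after its value was seen, had 81.4, 61.5 and 85.3 CPM in NM1 KO and 52.3, 40.9 and 43.2 CPM in WT, just short of a call (log2 0.74 ± 0.16, adjusted p = 0.0507). None of the ranges of these 4 genes overlapped. With GC and length trends removed the median of the list was -0.032, against 0.16 without that step. In that fit Ncoa2 was at 0.43 and no longer called (adjusted p = 0.0509), and Kmt2c was at 0.36 (adjusted p = 0.143).

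Other factors that promote fat cell formation had 0 of 22 called by edgeR and a median of -0.027. Before adjustment 2 were higher and 6 lower at a p below 0.05, and DESeq2 and limma-voom each called 2 higher and 3 lower. Bmp4, a signal that commits precursors to the fat lineage, was at 17.6 ± 2.35 CPM in NM1 KO and 29.4 ± 4.97 CPM in WT (log2 -0.74 ± 0.17, adjusted p = 0.0572). Srebf1, the sterol- and insulin-responsive factor SREBP-1, was at 313 ± 39.3 CPM in NM1 KO and 513 ± 84.8 CPM in WT (log2 -0.71 ± 0.16, adjusted p = 0.0579). Of 26 tested inhibitors of adipogenesis, 1 fell and 0 rose, with a median of -0.17. DESeq2 called 1 higher and 3 lower of them, and limma-voom 3 lower. The gene that fell in edgeR, Irf3, an interferon regulatory factor that restrains fat cell formation, had 47.3, 55.3 and 51.9 CPM in NM1 KO and 76.5, 77.4 and 82.6 CPM in WT (log2 -0.61 ± 0.10, adjusted p = 0.0287). With GC and length trends removed it was at -0.40 and not called (adjusted p = 0.0586).

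**Figure D4:**
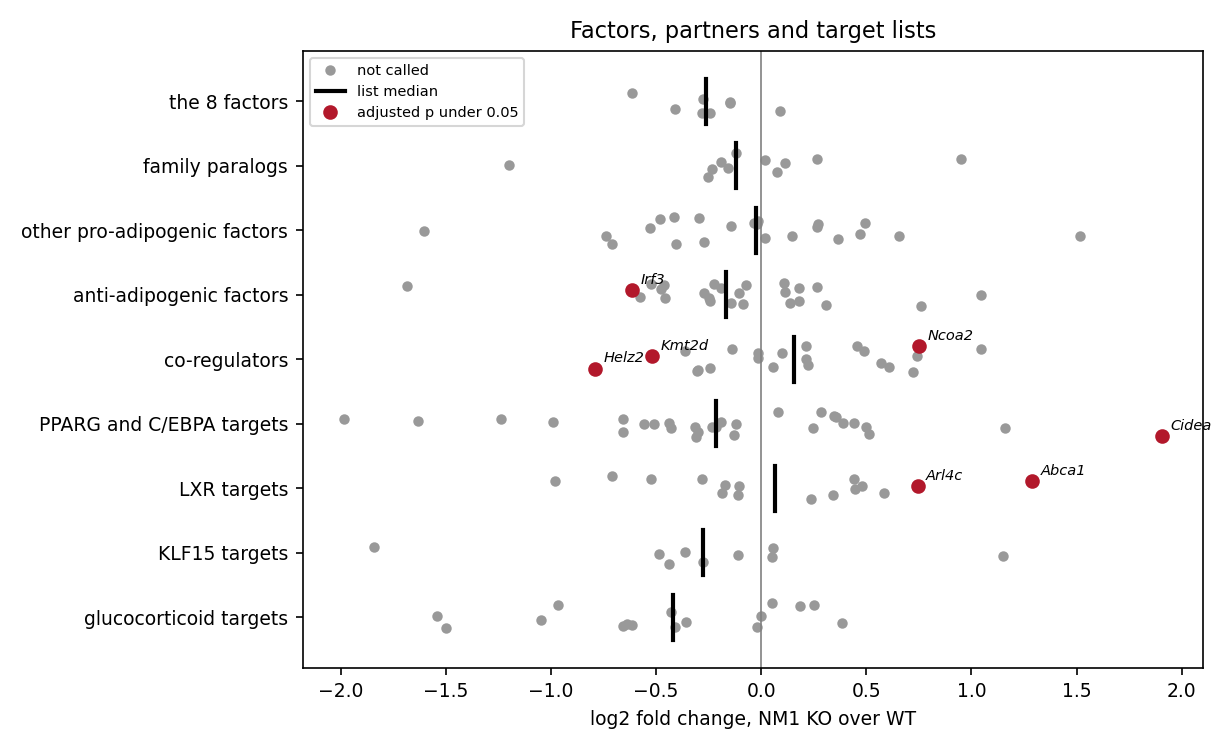
Log2 fold change, NM1 KO over WT, of every tested gene of each list (points, scattered vertically for visibility), with the list median as a black bar and genes with an adjusted p under 0.05 in red. The 7 called genes are Helz2, Kmt2d and Irf3 on the lower side and Ncoa2, Cidea, Arl4c and Abca1 on the higher side; some genes stand in more than 1 list.

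Target genes of PPAR gamma and C/EBP alpha showed 1 call among 29 tested, higher, and 0 lower, with a median of -0.22. DESeq2 called 3 higher and 7 lower, and limma-voom 2 higher and 3 lower. Cidea, a lipid droplet protein abundant in brown fat, rose to 8.39 ± 3.08 CPM in NM1 KO, against 2.23 ± 0.239 CPM in WT (log2 1.91 ± 0.32, adjusted p = 0.0287). The summed CPM of 9 brown fat markers, which include Cidea, was 40.7 to 45.3 in NM1 KO and 23.5 to 33.5 in WT. Of these markers 6 were tested, 5 with a positive and 1 with a negative log2 fold change. Cidea was the only one called by edgeR, and the only one with an unadjusted p under 0.05. Adrb3, the beta-3 adrenergic receptor of fat cells, had 62.2, 210.2 and 330.1 CPM in NM1 KO and 721, 833 and 834 CPM in WT (log2 -1.99 ± 0.52, adjusted p = 0.0804). Cfd, which encodes adipsin, and Retn, which encodes resistin, were named after their values were seen. Cfd was at 1975 ± 824 CPM in NM1 KO and 6128 ± 3038 CPM in WT (adjusted p = 0.0902), and Retn at 347 ± 166 CPM in NM1 KO and 819.9 ± 104 CPM in WT (adjusted p = 0.0937). Adipoq, which encodes adiponectin, had 1818, 2360.3 and 2217 CPM in NM1 KO and 2397, 2549 and 2487 CPM in WT, without overlap and without a call (log2 -0.22 ± 0.15, adjusted p = 0.413). Lep, which encodes leptin, was in the other direction (log2 1.16 ± 0.31, adjusted p = 0.0805).

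The summed CPM of 13 adipocyte markers was 33329 to 41468 in NM1 KO and 43292 to 49022 in WT, without overlap. A sum weighs abundant markers most, and this one includes Cfd, whose levels and wide spread are given above. Of these markers 12 had a negative log2 fold change and edgeR called 0, DESeq2 1 higher and 4 lower, and limma-voom 1 lower. Before adjustment 1 was higher and 6 were lower at a p below 0.05, and all 13 had counts. In bulk tissue, fewer cells of a type and less RNA per cell cannot be told apart. The part of these markers in the values of the 8 factors was not tested. Endothelial markers also moved with genotype, with a summed CPM of 473 to 715 for 13 genes in NM1 KO and 1193 to 1527 in WT, and 9 of them fell. DESeq2 and limma-voom each called 12 lower. The 9 edgeR calls became 0 without NM1 KO replicate 3 or without WT replicate 1, 2 or 3. These fits called 5, 37, 4 and 1 genes in the whole table, so the lost calls say nothing about stability. The median of the endothelial list was -1.34 to -1.02 in them, beside -1.24 with all libraries. Without NM1 KO replicate 1 there were 6 endothelial calls, and without NM1 KO replicate 2 there were 10. Egfl7, an endothelial secreted factor, fell to 30.7 ± 6.35 CPM in NM1 KO, against 86.0 ± 2.37 CPM in WT (adjusted p = 0.0176). Progenitor markers summed to 4023 to 4594 CPM for 13 genes in NM1 KO and 3277 to 4422 CPM in WT, and those ranges overlapped, with 3 of the genes called higher, 8 of 13 negative and a median of -0.066 (0.12 without WT replicate 3). Pdgfra, one of the genes called, had log2 0.85 ± 0.12 (adjusted p = 0.0227). Egfl7 and Pdgfra were each called in 2 of the 6 fits that left out a library. Over those 6 fits the log2 fold change was -1.60 to -1.31 for Egfl7 and 0.78 to 0.94 for Pdgfra. Mural markers summed to 612 to 821 CPM in NM1 KO and 872 to 1150.5 CPM in WT, mesothelial markers to 658 to 942 CPM in NM1 KO and 858 to 1428 CPM in WT, and T and NK cell markers to 24.6 to 95.9 CPM in NM1 KO and 19.7 to 23.0 CPM in WT.

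LXR target genes included 2 that rose among 16 tested and 0 that fell, where edgeR called 2.79% of all tested genes higher and 1.47% lower. The list median was 0.065, while Nr1h3 itself, which the list contains, lay lower in NM1 KO. DESeq2 called 3 higher and 2 lower, and limma-voom 2 higher and 1 lower. The median of the list was -0.041 without WT replicate 2. Abca1, the cholesterol export pump, had 492, 238 and 340.0 CPM in NM1 KO and 165, 117 and 157 CPM in WT (log2 1.29 ± 0.27, adjusted p = 0.0485). Arl4c, a small GTPase, had 32.7, 31.3 and 28.9 CPM in NM1 KO and 16.9, 16.5 and 22.1 CPM in WT (log2 0.75 ± 0.15, adjusted p = 0.0409). Both were higher in all NM1 KO libraries than in any WT library, as was the macrophage marker sum given above, whose part in these values was not tested. Abca1 was not called with 4 other filters or scalings or with GC and length trends removed (adjusted p between 0.0518 and 0.0573). The calls of Helz2, Ncoa2, Kmt2d, Irf3, Cidea, Arl4c and Abca1 were also followed in fits that left out 1 library. Without NM1 KO replicate 3, or without WT replicate 1, 2 or 3, 0 of these 7 were called (edgeR adjusted p between 0.0595 and 0.152). Those fits called 5, 37, 4 and 1 genes in the whole table, so the lost calls say nothing about stability. All 7 kept their sign when each library was left out. Helz2 lay at -0.85 to -0.75, Ncoa2 at 0.69 to 0.83, Kmt2d at -0.56 to -0.46 and Irf3 at -0.67 to -0.54. Cidea lay at 1.62 to 2.17, Arl4c at 0.67 to 0.89 and Abca1 at 1.00 to 1.51. Without NM1 KO replicate 1, 2 were called (Helz2 and Cidea), and without NM1 KO replicate 2 all 7 were.

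KLF15 target genes had 0 of 9 called by edgeR (before adjustment, 1 higher and 3 lower at a p below 0.05) and a median of -0.28. DESeq2 called 1 higher and 1 lower, and limma-voom 1 lower. Bcat2, the mitochondrial transaminase of branched-chain amino acids, was at 143 ± 12.0 CPM in NM1 KO and 200.2 ± 23.4 CPM in WT (log2 -0.49 ± 0.12, adjusted p = 0.0712), and for Adra1a, an adrenergic receptor, log2 was 1.15 ± 0.35 (adjusted p = 0.107). Glucocorticoid target genes had 0 of 16 called by edgeR (before adjustment, 1 higher and 5 lower at a p below 0.05) and a median of -0.42. That list contains Cebpd and Klf15, and also Mt1, Mt2 and Lcn2, which were named for their high level in WT replicate 2. DESeq2 called 2 lower and limma-voom 1 lower. Without WT replicate 2 the median of that list was -0.024. Per1, a clock gene induced by glucocorticoids, had 70.5, 97.8 and 80.2 CPM in NM1 KO and 132, 114 and 145 CPM in WT, without overlap (log2 -0.66 ± 0.15, adjusted p = 0.0601). Fam107a, another gene of that list, was at 3.41 ± 0.803 CPM in NM1 KO and 6.67 ± 2.27 CPM in WT (adjusted p = 0.127).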

How the data were processed

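Per the labels' protocols, libraries came from total RNA (NEBNext Ultra II) of visceral fat and were read on a NextSeq. The submitters' processing notes name the build GRCm38 (mm10) and the tools HTSeq, HISAT2 2.0.4, FastQC, Trimmomatic 0.36 and SAMtools 0.1.19. Neither the annotation used for counting nor its strand setting is given, so overlapping and antisense genes are uncertain. The authors deposited whole-number counts per Ensembl gene without normalization, 1 table per library. Of 46603 identifiers, 46091 matched GENCODE M21, and 0 named no gene.

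The test was that of edgeR 4.0.16, run in R 4.3.3 (filterByExpr, TMM, robust quasi-likelihood fit, genotype only, two-sided, Benjamini-Hochberg adjustment over all 15828 tested genes). The SE is |log2 fold change| over the root of the F statistic. Intervals at 95% use the t distribution of that fit. FPKM divides CPM by the union exonic length of GENCODE M21, and GC content is that of the longest transcript. Ratios were compared by exact permutation over libraries. The steps were tested on simulated data. There edgeR called 38 of 100 genes changed 2-fold and 89 of 100 changed 4-fold, with 16 false calls among 143. Chi-square per degree of freedom between libraries of a group was at least 35.9, so no library was taken for a repeat of another. That does not show that each came from its own animal.

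Named genes were the 8 factors, Myo1c, the factors' relatives, the called genes of each list (otherwise the 2 with the smallest p and at least 1 CPM), the nearest profiles and 6 markers. Not every gene so selected is printed. The members and lists were chosen with earlier results of these data known. Promoter sequences are from RefSeq (GRCm38.p6). Alternatives were other scalings and filters, non-robust dispersion, a replicate block, a GC and length offset (natural splines with 5 degrees of freedom), DESeq2 1.42.0, limma-voom (limma 3.58.1) and leaving out each library. Figures used matplotlib 3.10.9.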

Additional observations from a re-analysis of the deposited data

How the results depend on the processing

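None of the 8 factors was called in the 16 alternative fits (lowest adjusted p 0.0971). The 4 fits without NM1 KO replicate 3 or without 1 WT library called 5, 37, 4 and 1 genes in all, so they say nothing about stability. Over all 16 fits the log2 fold change of Nr1h3, Klf15, Cebpd, Cebpb and Ebf1 stayed below 0. The sign turned for Pparg with limma-voom (-0.059), and leaving out each library gave it -0.091 to 0.25. It turned with the GC and length correction for Cebpa (0.069), Rxra (0.018), Cebpg (-0.098), Ebf3 (-0.15), Ebf4 (0.039) and Rxrg (0.055), and for Saa3 with limma-voom (0.0028). The sign of Ebf3 also turned with upper-quartile factors (-0.023), library totals (-0.012) and limma-voom (-0.10). The cause was not tested. Leaving out each library gave -0.026 to 0.19 for Cebpg, -0.00017 to 0.48 for Ebf2, -0.094 to 0.18 for Ebf3, -0.44 to 0.044 for Ebf4, -1.43 to 0.27 for Mt1, -1.97 to 0.51 for Mt2, -2.03 to 0.084 for Lcn2 and -1.64 to 1.06 for Saa3.

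The 673 genes called over the whole table became 2239 with DESeq2, 1648 with limma-voom and 336 with the replicate block, and 1 to 1654 when each library was left out. No member was called under the replicate block, which took the named list calls from 7 to 3 and the endothelial marker calls from 9 to 3. Deviations of same-numbered libraries correlated at -0.039, -0.014 and 0.24, and not every library correlated best with its own number, so the numbers were not taken to pair the samples. Adding 0.5 FPKM turned the sign of no ratio difference. The factors had at least 1694 counts in each library.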
